A study of Mus musculus with 6 samples.

Results

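The 2 libraries whose titles carry the number 1 (KO 1 and WT 1) were compared with the 4 libraries numbered 2 and 3 (KO 2, KO 3, WT 2 and WT 3), out of 6 in the series. The members were taken from the titles alone. The sample identifiers follow the same division, with a middle number of 3 for both replicate 1 libraries and of 4 for the other 4, and the labels do not say what that number stands for. Each of the 6 libraries is RNA-seq of A2B5+ cells, selected with magnetic beads from neonatal mouse spinal cord (postnatal day 0.5, C57BL/6 background) and labelled as oligodendrocyte precursor cells (OPCs). All were held for 16 h in the same proliferative medium, which contained forskolin (5 µM), CNTF (10 ng/mL), PDGF (10 ng/mL) and the supplements B27 and N2. KO 1, KO 2 and KO 3 come from Gde3 knockout mice and WT 1, WT 2 and WT 3 from wild-type mice, so each side of the comparison holds both genotypes, and genotype was a term of the fit. The labels name no litters or animals per library, and the p-values therefore measure the spread between these libraries only.

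OPCs are glial progenitors that divide in response to PDGF and later leave the cell cycle to become myelinating oligodendrocytes. A2B5 is a ganglioside epitope that is also carried by precursors of astrocytes, and CNTF is a cytokine of the interleukin-6 family that can push such cells towards an astrocyte fate through STAT3. Forskolin activates adenylyl cyclase and so raises cyclic AMP. Transcripts of the mitotic machinery are made in one wave late in the cell cycle, so their level in a culture depends on how many cells are in G2 and M phase, whereas replication genes peak earlier, at the G1/S border.

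The values are FPKM, fragments scaled to transcript length and library size, averaged over the exonic bases of each gene. Sequencing depth in reads is not known; relative depths, read from the coverage behind each unit of FPKM, were 0.760 to 1. WT 1 was the shallowest and the most fragmented library, with assembled transcripts of 438 nt in the median, where the other 5 had 1173 to 1830 nt, and with 81.9% of the bases of a typical tested gene assembled against 90.6% to 92.9%. It also differed in sex markers: Xist was at 15.4 FPKM in WT 1 and listed at 0 elsewhere, while Ddx3y was listed at 0 in WT 1 and at 6.96 to 9.90 FPKM in the others. Gdpd2, which encodes GDE3, was at 0.667, 1.497 and 1.78 FPKM in KO 1 to KO 3 and at 0, 2.79 and 2.85 FPKM in WT 1 to WT 3, so that the gene average did not separate the genotypes. The part of assembly and sex in the results was not tested beyond the values given below, where KO 1, which shares neither trait, is set beside WT 1. All 6 OPC markers examined (Pdgfra, Cspg4, Sox10, Olig1, Olig2 and Ptprz1) were present in every library, with a summed level of 1212 to 1309 FPKM in replicate 1 and 781 to 1180 FPKM in replicates 2 and 3.

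Both replicate 1 libraries stood apart from the other 4 in the same direction. In these 2 libraries 38 of 92 G2 and mitosis genes and 3 of 50 astrocyte genes were lower, whereas Pyy, Syt13, Vgf and Nr4a1 were higher and 52 of 81 cytosolic ribosomal protein genes and 48 of 76 respiratory chain genes lay above the other libraries without passing the test. Of 12045 tested genes, 42 (0.349%) were higher and 207 (1.72%) lower in replicate 1 at a limma adjusted p under 0.05, or 249 (2.07%) in all. For each of those 249 genes the 2 replicate 1 values lay outside the range of the other 4. Such a lack of overlap was common without a call: it held for 2251 genes higher (18.7%) and 2565 genes lower (21.3%) in replicate 1, together 4816 (40%), and 2910 genes (24.2%) had an unadjusted p under 0.05. On the first principal component, with 36.8% of the variance, KO 1 was at -28.7 and WT 1 at -48.0, against 3.61 to 34.9 for the rest. Over the tested genes KO 1 and WT 1 were the most alike of any pair of libraries, with a Pearson r of 0.949 against 0.887 to 0.934 for the other pairs (across genes, a description).

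The calls were close to the threshold, and their number depended on each library. Adjusted p-values of the called genes ran from 0.0039 to 0.04997. With 1 library left out, the numbers called higher and lower were 26 and 20 without KO 1, 9 and 11 without KO 2, 4 and 4 without KO 3, 16 and 32 without WT 1, 4 and 4 without WT 2, and 4 and 2 without WT 3. Of 41 called genes named below, 1 (Mki67) was still called whichever library was left out, and none of the 41 changed direction. Over assembled bases only, where a gene's missing stretches do not lower its value, 196 of 11407 genes were called (1.72%). The direction was kept by 35 of 36 called higher genes and 189 of 190 called lower genes that had a value. The call itself was kept by 23 of the 42 genes called higher and 104 of the 207 called lower. Of the called genes named below, 10 lost it. Among them were Srebf1, Cdh5, Notch3, Trem2, Miat, Fancd2, Nr4a1, Dut and Per2 (limma adjusted p of 0.0543 to 0.256 over assembled bases). Another 7 genes described below were called over assembled bases only: Gfap, Aqp4, Cdk1, Rad51ap1, Cox7a2, Rps28 and Fosl1 (limma adjusted p of 0.0168 to 0.0475).

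The same division could be read in each genotype separately, with no library in common. Of 390 genes at least 1 log2 unit lower in KO 1 than in KO 2 and KO 3, 74.4% were also lower in WT 1 than in WT 2 and WT 3, and 41.3% by 1 unit or more, against 4.67% of all tested genes. Of 289 genes at least 1 unit higher in KO 1, 75.4% were higher in WT 1, and 41.5% by 1 unit or more, against 4.28% of all tested genes. Across the 12045 genes the 2 differences had a Pearson r of 0.369 and a Spearman rho of 0.560. Of these genes, 4321 were lower in replicate 1 in both genotypes and 4352 were higher in both. These are descriptions of 1 library against 2 in each genotype and carry no test.

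**Figure D1:**
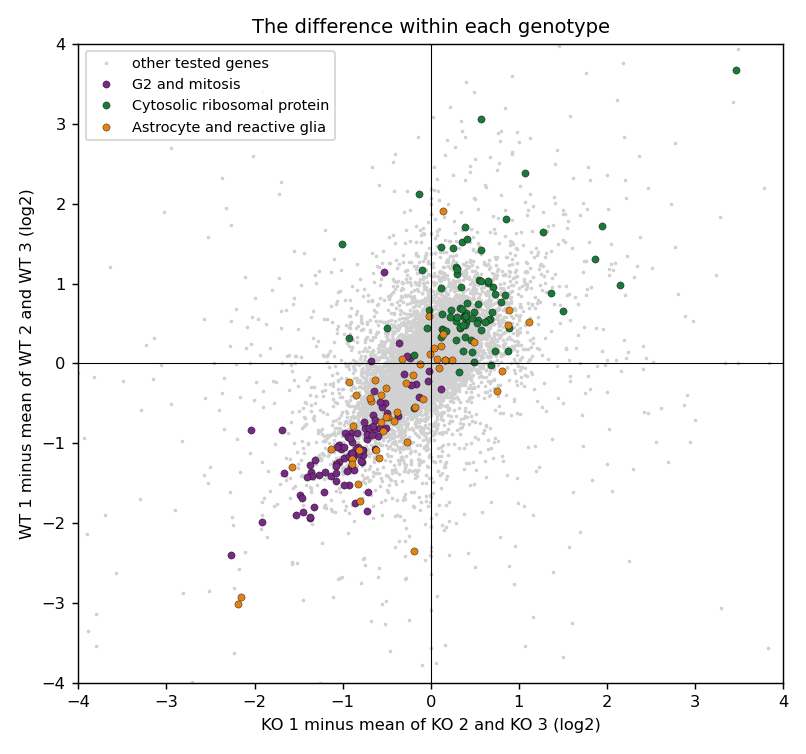
Each point is a tested gene, placed by its log2(FPKM + 1) difference in KO (KO 1 minus the mean of KO 2 and KO 3, horizontal axis) and in WT (WT 1 minus the mean of WT 2 and WT 3, vertical axis). Colours mark the G2 and mitosis, cytosolic ribosomal protein and astrocyte lists, and 67 genes lie beyond the axes. Of the 92 G2 and mitosis genes, 85 were below 0 in both genotypes, and 69 of the 81 ribosomal protein genes were above 0 in both. Of all 12045 tested genes, 4321 were below 0 in both and 4352 above 0 in both.

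Genes of G2 phase and mitosis formed the main group that was lower in replicate 1. All 92 listed genes passed the minimum level. Of them 38 (41.3%) were called lower and 0 called higher, against 1.72% and 0.349% of all tested genes. Their values lay below all 4 other libraries in 81 genes (88.0%) and above them in 1, against 21.3% and 18.7% of all tested genes. The median log2 difference was -1.002, against 0.01 over all tested genes, with -0.88 in KO and -1.08 in WT. It stayed negative in every alternative run, from -0.48 to -1.18. With 1 library left out, the number called fell to 1, or to 3 without KO 2, while the median stayed between -0.88 and -1.08. With FPKM summed over all fragments of a gene and no length minimum, 0 genes of the whole table were called, the median of all genes moved to 0.52, and Aspm, Cenpe, Cenpf and Kif2c turned positive. Bulk RNA does not tell fewer cells in mitosis apart from less RNA of these genes per cell.

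Mki67, whose product coats mitotic chromosomes and is the usual marker of cycling cells, had the smallest adjusted p of the list. The gene (ENSMUSG00000031004.8) lies on the minus strand of chromosome 7, at 135689784 to 135716361 in mm10. It was at 14.2 FPKM in KO 1 and 12.1 in WT 1, against 71.3 and 73.7 FPKM in KO 2 and KO 3 and 67.4 and 68.4 FPKM in WT 2 and WT 3. Each replicate 1 value was thus far below a narrow band formed by the other 4. The log2 difference was -2.33 ± 0.08 (SE), with a limma adjusted p of 0.0065, and the adjusted p was 0.0236 to 0.0495 with any 1 library left out. The gene was assembled over at least 96.7% of its bases in each library, and the difference over assembled bases was -2.35.

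Motors and checkpoint proteins of the spindle showed the same order of libraries. Cenpe, a kinesin that carries chromosomes along spindle microtubules, had values of 2.93 FPKM in KO 1 and 2.74 in WT 1, against 12.1, 15.8, 12.5 and 15.3 FPKM in KO 2, KO 3, WT 2 and WT 3. Its log2 difference was -1.95 ± 0.15 (SE, limma adjusted p = 0.0302). Cdc20, the activator of the anaphase-promoting complex, was at 21.3 FPKM in KO 1 and 13.6 in WT 1, against 44.8, 71.6, 56.4 and 53.4 FPKM. Replicate 1 was below the rest for Cdc20, but KO 1 and WT 1 differed more from each other than they did for Cenpe, and the call was narrow (-1.65 ± 0.24, limma adjusted p = 0.0491). Kif2c, a microtubule depolymerase at centromeres, was at 9.87 and 9.77 FPKM in replicate 1 against 24.5 to 31.3 FPKM, a log2 difference of -1.41. The cytokinesis kinesin Kif20a (-1.18), the centromere protein Cenpf (-1.72), the spindle-pole protein Aspm (-1.66), the spindle-associated Hmmr (-1.65) and Ckap2l (-1.14), and Troap (-1.57) were called lower as well. The mitotic kinases Plk1 (-1.11) and Aurka (-1.09) were also among the 38.

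Some core cell cycle genes had smaller differences or missed the threshold. Top2a, the topoisomerase that untangles replicated chromosomes, was at 68.9 FPKM in KO 1 and 63.9 in WT 1 and at 119, 147, 130 and 158 FPKM in the others. Its replicate 1 values were under those of every other library, and the log2 difference was -1.04 ± 0.15 (SE, limma adjusted p = 0.0488). Ccnb1, the mitotic cyclin, was at 25.4 and 21.9 FPKM against 44.6 to 72.5 FPKM but did not pass the test (-1.27, limma adjusted p = 0.0757). Its kinase Cdk1 did not either (-0.65, limma adjusted p = 0.107). Cdk1 was assembled over 47.0% of its bases in KO 1 and 59.5% in WT 1, against 22.0% to 23.6% in the others. Over assembled bases only, Cdk1 was called lower (-1.86, limma adjusted p = 0.0168). Birc5, the survivin subunit of the chromosomal passenger complex, was the 1 gene with the opposite order, at 15.9 and 16.7 FPKM in replicate 1 against 9.90 to 12.8 FPKM. Only 16.7% to 27.0% of its bases were assembled, its limma adjusted p was 0.104, and over assembled bases its difference was -0.14.

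**Figure D2:**
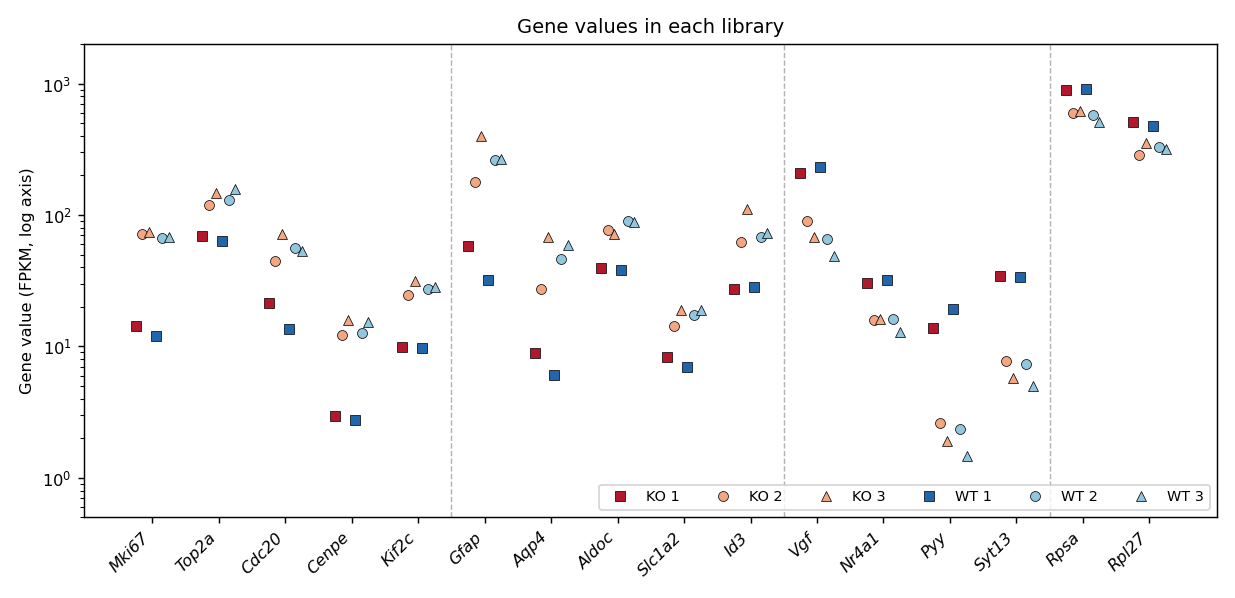
FPKM on a log axis for 16 genes in each library; squares are KO 1 and WT 1, circles number 2 and triangles number 3, with KO in red shades and WT in blue shades. Dashed lines separate mitotic genes, glial genes, genes higher in replicate 1 and ribosomal protein genes; for Mki67 both squares sit at 12.1 to 14.2 FPKM, under the other 4 at 67.4 to 73.7 FPKM.

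Promoters of late cell cycle genes are known to carry a cell cycle genes homology region (CHR), which is bound by the LIN54 subunit of the MuvB complex, often downstream of CCAAT boxes bound by NF-Y. RefSeq promoters of 300 bases (250 before and 50 after the annotated start, GRCm38.p6, the same assembly as mm10) were searched on both strands for TTTGAA or TTTAAA and for CCAAT. A promoter was in the table for 75 of the 92 G2 and mitosis genes. The CHR letters were in 55 of these (73.3%), in 82.4% of the 34 called lower, in 21.1% of 57 S phase promoters and in 18.3% of the 9454 promoters of tested genes. Over the whole set, 27.8% of 27025 promoters held them. CCAAT was in 70.7% of the mitotic promoters, 57.9% of the S phase promoters and 38.9% of those of tested genes, and both motifs together were in 58.7%, 12.3% and 7.48%. These shares describe letters in a window and do not show binding in these cells. Of the called mitotic genes named here, 12 had a promoter in the table. In the 150 bases before the start 5 of these (Cenpe, Hmmr, Troap, Cenpf and Aurka) held no CHR letters. Over all 300 bases, the window of the shares above, 1 of the 12 (Troap) held none. The 150 bases before the start are shown for the proliferation markers Mki67 and Top2a, and for Cdc20, Ckap2l and Aspm, chosen because they hold both motifs there. They are also shown for Hmmr, a called gene with CCAAT alone in this stretch. Each is written 5′ to 3′ on the gene's strand, with CHR and CCAAT letters of either strand in capitals (TTCAAA is TTTGAA, and ATTGG is CCAAT, read on the other strand).
Mki67, chr7:135716380-135716529, minus strand: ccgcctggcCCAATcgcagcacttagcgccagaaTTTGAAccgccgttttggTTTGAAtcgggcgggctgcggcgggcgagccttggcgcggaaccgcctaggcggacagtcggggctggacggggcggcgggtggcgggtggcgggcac
Cdc20, chr4:118437344-118437493, minus strand: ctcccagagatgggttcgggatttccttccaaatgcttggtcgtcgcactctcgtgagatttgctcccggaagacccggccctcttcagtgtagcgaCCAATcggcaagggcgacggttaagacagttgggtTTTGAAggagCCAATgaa
Top2a, chr11:99024190-99024339, minus strand: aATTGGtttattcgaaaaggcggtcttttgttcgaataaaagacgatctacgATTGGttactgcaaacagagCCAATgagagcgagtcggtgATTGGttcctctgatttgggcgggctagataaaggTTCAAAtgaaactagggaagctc
Ckap2l, chr2:129297213-129297362, minus strand: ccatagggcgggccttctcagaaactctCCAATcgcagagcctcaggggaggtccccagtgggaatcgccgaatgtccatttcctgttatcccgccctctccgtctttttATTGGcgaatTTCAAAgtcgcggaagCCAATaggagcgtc
Aspm, chr1:139454623-139454772, plus strand: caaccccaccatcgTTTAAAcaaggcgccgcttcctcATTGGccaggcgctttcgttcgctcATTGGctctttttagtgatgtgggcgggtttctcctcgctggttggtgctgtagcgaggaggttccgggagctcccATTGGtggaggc
Hmmr, chr11:40733438-40733587, minus strand: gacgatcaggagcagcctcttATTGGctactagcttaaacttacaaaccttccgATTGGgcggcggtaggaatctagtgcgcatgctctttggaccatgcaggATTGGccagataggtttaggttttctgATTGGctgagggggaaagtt

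S phase genes were called about as often as genes in general. Of 73 tested S phase and replication genes 1 was called lower and 1 higher (1.37% each, against 1.72% and 0.349% of all tested genes). Below the other 4 libraries lay 25 (34.2%) and above them 10 (13.7%), against 21.3% and 18.7% of all tested genes. The median log2 difference was -0.11. It was -0.05 without KO 1 and -0.21 without WT 1. With FPKM summed over all fragments of a gene it was 0.21, where the median of all genes was 0.52. Fancd2, a Fanconi anaemia protein that protects stalled forks, was at 3.71 FPKM in KO 1 and 3.15 in WT 1 against 6.68 to 8.40 FPKM (-0.93, limma adjusted p = 0.0411). Dut, which hydrolyses dUTP, went the other way, at 46.1 and 53.4 FPKM against 19.5 to 25.9 FPKM (1.09, limma adjusted p = 0.0459), with at most 50.4% of its bases assembled. Rad51ap1 (-0.72), Clspn (-0.62) and Mcm10 (-0.61) lay below the other 4 libraries without passing the test. A test of the mitotic against the S phase genes was not run, and the 2 medians stand side by side.

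Lists of G1 control and of the p53 response had no call, which at 2.07% called over all tested genes says little for lists of their size. Among 20 tested G1 cyclins, their kinases and CDK inhibitors 0 were called by limma, 5 had an unadjusted p under 0.05 (1 higher and 4 lower), and the median difference was -0.01. Cdk4, the PDGF-responsive G1 kinase, was at 428 and 442 FPKM in replicate 1 against 283 to 358 FPKM, and Cdkn2c, an inhibitor of it, at 12.5 and 10.9 FPKM against 15.1 to 21.3 FPKM. Their limma adjusted p-values were 0.128 and 0.107. Of 35 tested p53 targets and DNA damage genes 0 were called (1 higher and 7 lower at an unadjusted p under 0.05), with a median of 0.04. Phlda3, a p53-induced inhibitor of AKT, had the smallest p of that list (0.87, limma adjusted p = 0.0626), and its values of 44.8 and 46.2 FPKM lay above 20.8 to 28.7 FPKM.

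The astrocyte list had a negative median and few calls. Of 50 tested astrocyte and reactive glia genes 3 were called lower (6%, against 1.72% of all tested genes) and 0 higher. Below all 4 other libraries lay 24 (48%) and above them 4 (8%), against 21.3% and 18.7% of all tested genes. The median log2 difference was -0.45, with -0.36 in KO and -0.40 in WT. It was -0.26 after adjustment for gene length and GC content. With FPKM summed over all fragments it was 0.01, in a setting where the median of all genes was 0.52. Radial glia and neural stem cell genes, which overlap with astrocytes in function, had 1 call lower among 31 and a median of -0.03.

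Gfap, the intermediate filament of astrocytes, was the gene of the list with the largest difference. It lies on the minus strand of chromosome 11 at 102887336 to 102900912 (ENSMUSG00000020932.14). Its values were 57.9 and 32.1 FPKM in KO 1 and WT 1, 178 and 401 FPKM in KO 2 and KO 3, and 263 and 268 FPKM in WT 2 and WT 3. The groups did not overlap, but KO 2 and KO 3 differed between themselves by more than WT 2 and WT 3 did. The log2 difference of -2.60 ± 0.38 (SE) had a limma adjusted p of 0.05003, just short of the threshold, and 0.0236 to 0.291 with a library left out. Aqp4, the water channel of astrocyte endfeet, had a similar spread, at 8.95 and 6.02 FPKM against 27.4, 68.5, 46.1 and 59.5 FPKM. It was not called either (-2.54, limma adjusted p = 0.0581). Over assembled bases only, both genes were called lower, Gfap at -2.66 (limma adjusted p = 0.0356) and Aqp4 at -2.60 (limma adjusted p = 0.0416).

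The 3 astrocyte genes that passed had smaller but more even differences. Aldoc, a glycolytic aldolase typical of astrocytes, was at 39.5 FPKM in KO 1 and 38.3 in WT 1 against 76.8, 72.1, 90.5 and 88.4 FPKM (-1.05, limma adjusted p = 0.0361). Slc1a2, the glutamate transporter GLT-1, was at 8.35 and 6.997 FPKM against 14.3 to 19.0 FPKM (-1.08, limma adjusted p = 0.0494). Acsbg1, an acyl-CoA synthetase, was at 11.5 and 7.66 FPKM against 16.5 to 22.4 FPKM (-0.95, limma adjusted p = 0.0411). Slc1a3, the second glial glutamate transporter, had a difference of -0.59 without a call (limma adjusted p = 0.0533). Id3, a BMP and STAT3 target, was at 27.3 and 28.1 FPKM against 61.9, 112, 68.1 and 73.4 FPKM, also without a call (-1.44, limma adjusted p = 0.0634). The 4 genes of the list above all other libraries, named after their values were seen, were Cd44, Timp1, Lcn2 and Mt1, which are known to be induced in reactive glia. Cd44, a hyaluronan receptor, was at 28.1 and 23.9 FPKM against 13.2 to 16.6 FPKM (0.77, limma adjusted p = 0.0652), and none of the 4 was called.

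OPC and myelin genes showed no common direction. Among 34 tested OPC genes 0 were called by limma, against 2.07% of all tested genes (4 higher and 5 lower at an unadjusted p under 0.05). The median was 0.11. Pdgfra, the PDGF receptor of OPCs, was at 67.4, 60.7 and 134 FPKM in KO 1 to KO 3 and at 131, 128 and 76.0 FPKM in WT 1 to WT 3, so replicate 1 fell inside the range of the rest. Cspg4 (NG2) was at 51.1 and 47.0 FPKM in replicate 1 against 37.5 to 46.5 FPKM, a log2 difference of 0.22. Bcan, a proteoglycan of the OPC matrix, lay lower at 65.3 and 58.0 FPKM against 87.4 to 91.7 FPKM (-0.53, limma adjusted p = 0.062). Olig2 was at 258 and 279 FPKM against 83.3 to 232 FPKM, and Sox10 overlapped between the groups.

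Of 47 tested premyelinating and myelin genes 0 were called, against 2.07% of all tested genes (2 higher and 5 lower at an unadjusted p under 0.05). The median was -0.04. Mog, a late myelin protein, was listed at 0 in WT 1 and was at 2.33 FPKM in KO 1 against 2.94 to 11.1 FPKM.

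Ribosomal protein genes leaned the opposite way to the mitotic genes, without a single call. Of 81 tested cytosolic ribosomal protein genes 0 were called by limma, and 37 were higher and 0 lower at an unadjusted p under 0.05. Above all 4 other libraries lay 52 (64.2%) and below them 0. Of all tested genes 2.07% were called, 18.7% lay above and 21.3% below. The median log2 difference was 0.53, with 0.39 in KO and 0.64 in WT. Rpsa, a small-subunit protein, was at 890 FPKM in KO 1 and 911 in WT 1 against 601, 623, 577 and 511 FPKM (0.64, limma adjusted p = 0.0717). Rpl27 of the large subunit was at 509 and 474 FPKM against 287 to 355 FPKM (0.61, limma adjusted p = 0.0856). Rps28 was at 1193 and 501 FPKM against 245 to 292 FPKM, so KO 1 stood well above WT 1 (1.57, limma adjusted p = 0.0671). Nuclear subunits of the respiratory chain did likewise: 0 of 76 were called, 48 lay above the other 4 libraries (63.2%) and 0 below, and the median was 0.36. Ribosomal protein genes have processed copies elsewhere in the genome that can share reads, so the value of any 1 of them is uncertain. Cox7a2 of complex IV was at 194 and 235 FPKM against 60.3 to 109 FPKM (1.52, limma adjusted p = 0.0602). Among 75 mitochondrial ribosomal proteins the median was 0.25 (0.16 without WT 1) and 1, Mrpl24, was called higher, at 24.4 and 24.5 FPKM against 5.81 to 8.44 FPKM (1.69, limma adjusted p = 0.0286). Ribosome biogenesis factors, most of them nucleolar, had 0 calls among 46 and a median of 0.12, or 0.0083 without WT 1.

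Ribosomal protein and respiratory subunit genes are short, and gene length moved with the difference. Over 5 bins of exonic length the median log2 difference of all tested genes went from 0.17 in the shortest (median 1364 nt) to -0.11 in the longest (median 7379 nt). The median length was 977 nt for cytosolic ribosomal proteins and 1011 nt for respiratory subunits, against 3415 nt for all tested genes and 3286 nt for G2 and mitosis genes. After adjustment of each library for length and GC content, an alternative chosen after seeing the data, the medians were 0.40 for ribosomal proteins, 0.23 for respiratory subunits and -0.92 for mitotic genes, of which 43 were called; with length alone 18 were called. With transcripts under 1000 nt left out the ribosomal protein median was -1.68 over 37 genes, a setting that leaves out any complete transcript shorter than that. Normalization by quantiles gave 0.13 for ribosomal proteins and 0.15 for respiratory subunits. FPKM summed over all fragments gave 0.54 and 0.38, where the median of all genes was 0.52.

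**Figure D3:**
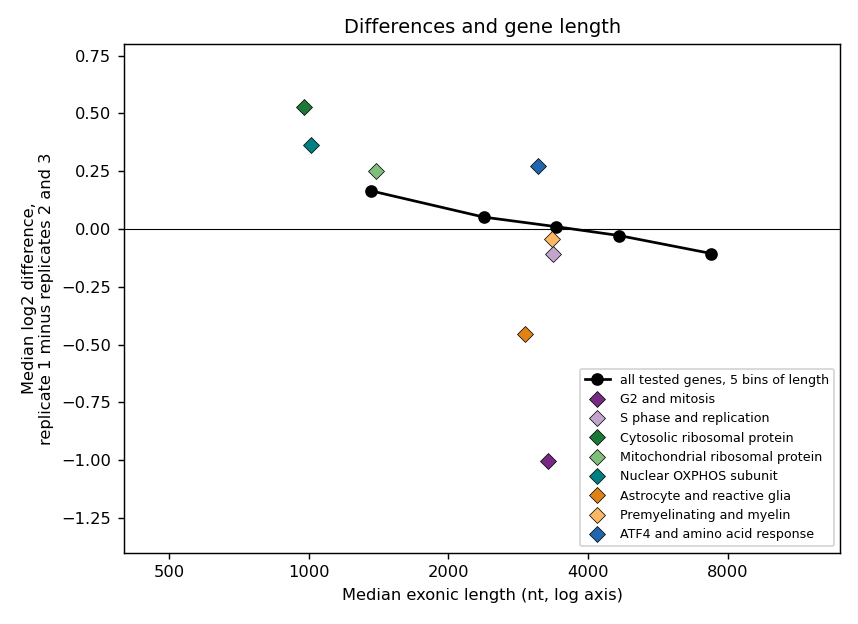
Median log2 difference (replicate 1 minus replicates 2 and 3) against median exonic length in nt on a log axis, for 5 bins of all tested genes (black line) and for 8 gene lists (diamonds). The line falls from 0.17 to -0.11; G2 and mitosis at -1.002 and the astrocyte list at -0.45 lie below it at a similar length to all genes, and the ribosomal and respiratory lists lie above its short end.

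Among the genes called higher that met the naming rule, Pyy, the gut and neuroendocrine peptide YY, had the largest log2 difference. It was at 13.8 FPKM in KO 1 and 19.4 in WT 1 and at 2.60, 1.89, 2.35 and 1.45 FPKM in the other 4 (2.51 ± 0.23, SE, limma adjusted p = 0.033). Syt13, a synaptotagmin of vesicle traffic, was at 34.4 and 34.0 FPKM against 5.01 to 7.75 FPKM, with KO 1 and WT 1 nearly equal (2.25, limma adjusted p = 0.0321). Vgf, a secreted neuropeptide precursor induced by growth factors and cyclic AMP, was at 208 and 233 FPKM against 89.8, 67.7, 66.1 and 49.1 FPKM (1.71, limma adjusted p = 0.0425). Gem (1.78), a small GTPase induced by calcium and cyclic AMP signals, the aldehyde dehydrogenase Aldh3a1 (2.14), the melanosomal protein Tyrp1 (1.71), the haem enzyme Alad (1.66) and the fatty acid carrier Fabp3 (1.12) were also called higher, as were Msantd3 (1.22) and 2310039H08Rik (1.08).

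Immediate early genes and cyclic AMP targets followed. Of 31 tested immediate early genes 16 (51.6%) lay above the other 4 libraries and 2 (6.45%) below, against 18.7% and 21.3% of all tested genes. Only 1 was called, higher (3.23%, against 0.349% of all tested genes). The median was 0.46, which was 0.26 without WT 1 and 0.67 without KO 1. The called gene was Nr4a1, a nuclear receptor that CREB induces, at 30.4 and 31.9 FPKM in KO 1 and WT 1 against 15.8, 16.1, 16.1 and 12.9 FPKM (0.99, limma adjusted p = 0.0411). The AP-1 members Fosl1 (1.53), Fosb (1.19) and Fosl2 (0.81) lay above all other libraries without passing. Of 25 tested cyclic AMP targets 2 were called higher (Vgf and Nr4a1) and 1 lower (Per2), or 8% and 4%, against 0.349% and 1.72% of all tested genes. Per2, a circadian repressor, was at 1.48 and 1.26 FPKM against 3.47 to 5.33 FPKM (-1.13). Only 36.2% of its bases were assembled in WT 1. Over assembled bases its values overlapped and it was not called (-0.64, limma adjusted p = 0.256). The median of the list was 0.24, or 0.14 without KO 3.

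**Figure D4:**
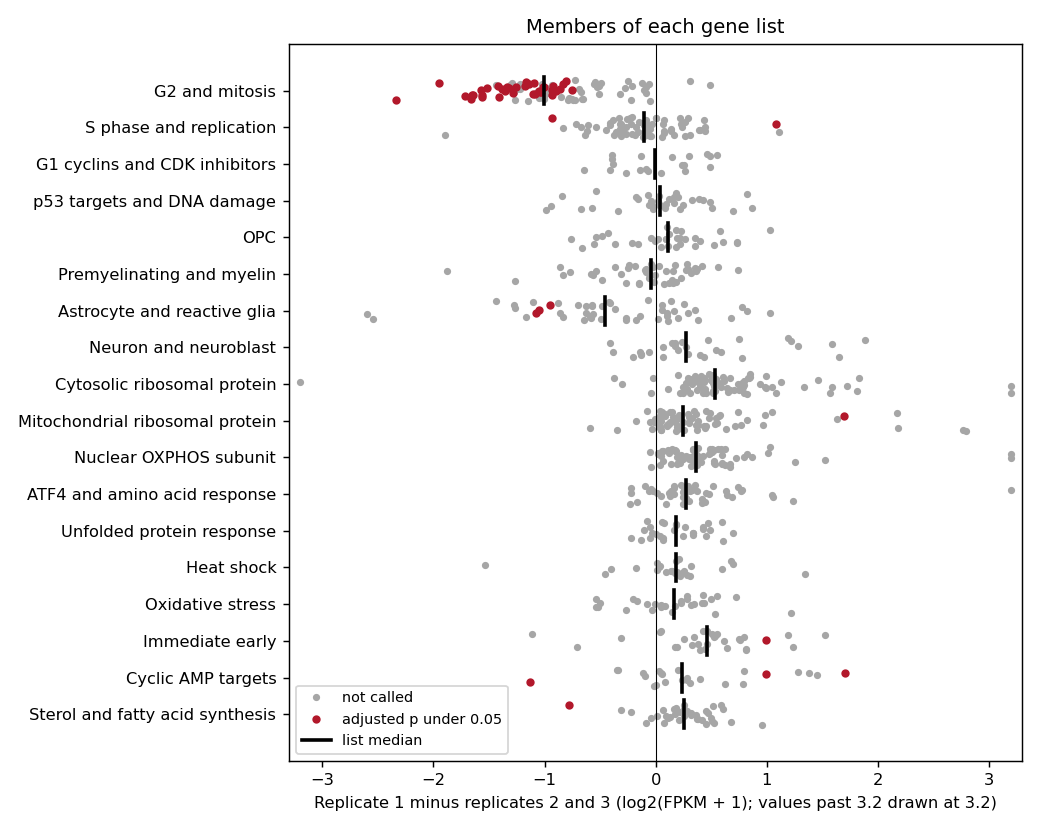
Each row is a gene list and each point a tested member, placed by its log2(FPKM + 1) difference of replicate 1 minus replicates 2 and 3; red points have an adjusted p under 0.05 and black bars are list medians. The bar of G2 and mitosis is at -1.002, that of the astrocyte list at -0.45, and those of cytosolic ribosomal proteins and immediate early genes at 0.53 and 0.46.

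The stress lists held no called gene, which at 2.07% called over all tested genes says little for lists of their size. Of 50 tested ATF4 and amino acid response genes 0 were called by limma (12 higher and 0 lower at an unadjusted p under 0.05). Above the other 4 libraries lay 22 (44%) and below them 2 (4%), against 18.7% and 21.3% of all tested genes. The median was 0.27, or 0.28 after adjustment for length and GC. Slc7a1, an importer of cationic amino acids, was at 41.0 and 41.6 FPKM against 27.0 to 29.8 FPKM (0.52, limma adjusted p = 0.0605). Asns, asparagine synthetase, was at 87.0 and 94.1 FPKM against 56.7 to 70.4 FPKM (0.48, limma adjusted p = 0.0999), and Chac1, which degrades glutathione, at 13.2 and 15.1 FPKM against 4.68 to 9.36 FPKM (1.06, limma adjusted p = 0.124). In the promoter table TGATGCA, letters of the amino acid response element, was in 10 of 43 promoters of this list (23.3%) and in 1.78% of those of tested genes.

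The other stress lists had medians nearer to 0. The unfolded protein response had a median of 0.18 with 0 of 29 called (7 higher and 0 lower unadjusted), heat shock genes 0.19 with 0 of 25 called (6 and 2), and oxidative stress genes 0.16 (0.11 without KO 1) with 0 of 30 called (7 and 3). Hspa8, the constitutive HSP70, was at 1539 and 1529 FPKM against 840 to 1137 FPKM (0.70, limma adjusted p = 0.103). Sod1, the cytosolic superoxide dismutase, was at 399 and 530 FPKM against 159 to 226 FPKM (1.22, limma adjusted p = 0.0605), whereas the NRF2 target Nqo1 lay lower, at 10.8 and 8.02 FPKM against 13.0 to 14.4 FPKM (-0.52, limma adjusted p = 0.0784).

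Genes of the pathways engaged by PDGF and CNTF in the medium gave no call. At 2.07% called over all tested genes, this says little for lists of their size. For PDGF and ERK feedback 0 of 25 tested genes were called (6 higher and 2 lower unadjusted). The median was 0.16, or 0.10 without WT 2. Above the other 4 libraries lay 10 (40%) and below them 3 (12%), against 18.7% and 21.3% of all tested genes. In the CNTF receptor and JAK-STAT list 0 of 27 tested genes were called (7 higher and 8 lower unadjusted). Its median was -0.16, or -0.05 without KO 3 and -0.08 without WT 1 or WT 3. Of this list 7 (25.9%) lay above and 11 (40.7%) below. Dusp4, an ERK phosphatase induced by ERK itself, was at 12.1 and 12.9 FPKM against 7.35 to 8.54 FPKM (0.62, limma adjusted p = 0.056). Osmr, the oncostatin M receptor and a STAT3 target, was at 4.37 and 3.35 FPKM against 5.76 to 6.76 FPKM (-0.58, limma adjusted p = 0.0605). Of 20 tested Notch genes 1 was called lower (5%, against 1.72% of all tested genes). It was Notch3, at 2.22 and 1.28 FPKM against 4.42 to 6.65 FPKM (-1.21, limma adjusted p = 0.0399). In sterol and fatty acid synthesis 18 of 37 genes (48.6%) lay above the other 4 libraries and 1 (2.70%) below, against 18.7% and 21.3% of all tested genes. The median was 0.26. The 1 gene called there was lower: Srebf1, the lipogenic transcription factor SREBP-1, at 21.5 and 19.9 FPKM against 34.2 to 41.0 FPKM (-0.78, limma adjusted p = 0.0411). Fdft1, squalene synthase, was at 126 and 140 FPKM against 79.0 to 95.3 FPKM (0.59, limma adjusted p = 0.0531).

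The largest called decreases outside mitosis that met the naming rule were of mixed function. Col16a1, a fibril-associated collagen, was at 7.46 FPKM in KO 1 and 7.22 in WT 1 against 21.6 to 31.8 FPKM (-1.71). P4ha3, a collagen prolyl hydroxylase subunit, was at 1.73 and 1.49 FPKM against 5.72 to 9.32 FPKM (-1.79). Wsb1, a ubiquitin ligase adaptor, was at 12.8 and 11.3 FPKM against 35.1 to 48.4 FPKM (-1.78), the long noncoding RNA Miat at 1.54 and 1.81 FPKM against 5.96 to 13.1 FPKM (-1.94), and Zc3h7a at 3.69 and 2.25 FPKM against 9.87 to 12.5 FPKM (-1.65). Limma adjusted p-values of these 5 were 0.0313 to 0.0432.

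Markers of other cell types differed between the 2 sets, and their part in the results was not tested. The 7 astrocyte markers (Gfap, Aqp4, Slc1a3, Slc1a2, Aldh1l1, Aldoc and Gja1) summed to 156 to 217 FPKM in replicate 1 and 432 to 711 FPKM in the others. The 3 endothelial markers summed to 15.7 to 16.9 against 3.28 to 9.38 FPKM, and erythroid markers to 104 to 165 against 21.8 to 51.3 FPKM, nearly all of it Hbb-bs, with Hba-a1 listed at 0 in each library. Cdh5, the endothelial cadherin, was called higher at 6.19 and 4.53 FPKM against 1.76 to 3.36 FPKM (0.92, limma adjusted p = 0.04997). Neuronal markers summed to 111 to 178 against 92.8 to 109 FPKM, with KO 1 close to the others. Of the 5 neuronal markers, Stmn2 was at 68.0 FPKM in WT 1 and 19.7 FPKM in KO 1 against 10.1 to 13.4 FPKM, Rbfox3 was also highest in WT 1 and then KO 1, and Tubb3 was highest in WT 1 only. Snap25 was lowest in WT 1, at 3.99 FPKM against 5.13 to 9.31 FPKM elsewhere, and Dcx overlapped. Sums overlapped between the sets for myelin (355 to 371 against 296 to 390 FPKM), microglia (51.6 to 61.1 against 31.0 to 96.8 FPKM), pericytes and fibroblasts (42.0 to 42.9 against 40.2 to 103 FPKM) and Schwann cells (30.04 to 34.4 against 20.1 to 35.0 FPKM). Of 27 tested microglia and macrophage genes 2 were called lower (7.41%, against 1.72% of all tested genes): the receptor Trem2 (-1.21, limma adjusted p = 0.0399) and Spp1, osteopontin (-1.05, limma adjusted p = 0.0448). Trem2 was assembled over 48.0% of its bases in WT 1. Over assembled bases it was not called (-0.88, limma adjusted p = 0.0576).

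Whether the difference was the same in both genotypes was asked with the interaction of genotype and replicate set. It was called for 36 genes (0.299%), and 664 (5.51%) had an unadjusted p under 0.05. Of the 36, 33 were listed at 0 in at least 1 library and 11 were genes of the mitochondrial genome. Among them 0 were G2 and mitosis genes and 0 were among the 249 genes above. A gene whose difference depends strongly on genotype has a wide spread in the fit without the interaction, and could hardly be among the 249. That overlap of 0 therefore says little. Each genotype holds only 1 replicate 1 library. The lack of an interaction call for mitotic genes therefore does not show an equal difference in both genotypes. Over assembled bases only, 0 of 11407 genes were called by limma, with 1146 at an unadjusted p under 0.05.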

How the data were processed

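The submitters' processing notes list the mm10 build and 4 tools (Cufflinks 2.2.1, Cuffdiff 2.2.1, TopHat2 2.1.1 and FastQC), without saying whether libraries were stranded. Each deposited file is the transcript assembly of 1 library, with exons, coverage, a score and an FPKM value for every transcript as computed by the authors; the deposited score column was not used. Read counts were not used here, so no count model or counting interval was applied, and relative depth came from coverage per FPKM. Transcripts of 300 nt or more were matched by position to GENCODE M21, the FPKM on the gene's strand or without strand was summed at each exonic base not shared with another gene, and the mean over bases was the gene value (31266 genes with at least 200 such bases). An unassembled stretch lowers this mean, and 0 means that nothing was assembled. A transcript that spans several genes gives its FPKM to each of them. Among the mitochondrial genes called for the interaction, mt-Co1 and mt-Atp6, for example, both had 1014 FPKM in KO 2, 797 FPKM in KO 3 and 0 elsewhere. Such genes are not separate results.

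The 12045 genes with a mean of at least 1 FPKM over the 6 libraries entered a limma fit (version 3.58.1, R 4.3.3) of log2(FPKM + 1), two-sided, with a trended empirical Bayes prior, terms for genotype and replicate set and 3 residual degrees of freedom; p-values were adjusted by Benjamini-Hochberg at 0.05. Differences on this scale understate those of low genes. The files hold transcripts, not values per gene, and limma on log values was used as planned. A gene is said to lie above or below the other libraries when both replicate 1 values are outside the range of the other 4. Because 2 against 4 libraries allow no exact permutation p below 0.133, no such test was made of single values. On simulated data for this comparison, over 12045 genes, 42% of genes changed by 1 log2 unit were recovered and 74% of those changed by 2, with 6 false calls among 122.

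The 35 gene lists (1303 of 1313 symbols quantified) and the comparison itself were chosen with earlier results of these data known. Named genes were Mki67 and Gfap; up to 12 called genes per direction without overlap in either gene value, assembled over at least 50% of their bases and at a mean of at least 5 FPKM, by size; and the 6 or 3 members of each list with the smallest p, not all of which are described; 2 of the genes that the rule takes are not reported here. Top2a, Birc5, Plk1, Aurka, Ccnb1, Cdk1, Cd44, Timp1, Lcn2, Mt1, Stmn2 and Snap25 were named after their values were seen. Alternatives covered pseudocounts, filters, scaling, the gene value, transcript length, the model, left-out libraries and, chosen after seeing the data, adjustment for gene length and GC content.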

Additional observations from a re-analysis of the deposited data

Results flagged for a closer look

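Within the 4 libraries numbered 2 and 3, 5 of the 87 genes described had 1 library far from the other 3 by Dixon's test. That test flags about 1 in 20 groups by chance, and the count is near that share. Clspn was at 15.5 FPKM in WT 2, Nr4a1 at 12.9 FPKM in WT 3, Olig1 at 356 FPKM in WT 3 and Sox10 at 82.3 FPKM in WT 3, each below the other 3 libraries. Srebf1 was at 41.0 FPKM in KO 3, above the other 3.

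The interaction of genotype and replicate set was called by limma for 36 genes, that is, their listed difference in KO was unlike that in WT. Of the 36, 33 were listed at 0 in at least 1 library, where nothing was assembled for the gene. Among the genes described the interaction was called for Xist, with a KO minus WT value of -4.04 (limma adjusted p = 0.0329), where the 15.4 FPKM of WT 1 was the 1 value above 0.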

How the results depend on the processing

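No paired analysis was possible because the replicate number is itself the contrast, so that a block on it takes up the whole difference. The number of genes called higher in replicate 1, 42, moved by over 1.5 times to 0 with FPKM summed over transcripts, 4 with no length minimum, 13 with a minimum of 1000 nt, 161 without the genotype term, 125 with array weights, 6 without moderation and 147 among genes assembled over 80% in every library. It was 22 adjusted for length and 68 adjusted for length and GC, both chosen after seeing the data, and 4 to 26 with 1 library left out. The number called lower, 207, went to 132 with median centring, 135 with quantile normalization, 0 with summed FPKM, 4 with no length minimum, 64 with 1000 nt, 511 without the genotype term, 432 with array weights, 12 without moderation, 80 adjusted for length and 2 to 32 with a library left out. Of all called genes, 4 to 9 were called again with a library left out. The interaction count of 36 went to 0 over assembled bases. The cause of these moves was not tested.

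Over all alternatives, values of the genes described kept their direction and their side of the threshold in 1461 cases, lost the call in 443, gained it in 69 and changed direction in 40. The changes of direction came with summed FPKM for Aspm (1.46), Birc5 (-0.18), Cenpe (0.093), Cenpf (0.48), Col16a1 (0.71), Fancd2 (0.21), Gdpd2 (1.17), Kif2c (0.42), Mcm10 (1.43), Mog (0.14), Notch3 (0.19), Nqo1 (0.0236), Osmr (0.77), Pdgfra (0.0724), Per2 (1.43), Snap25 (0.75), Sox10 (-0.0396), Srebf1 (0.14) and Trem2 (1.25). That setting moved the median of all genes to 0.52, the astrocyte median to 0.0116 and the S phase median to 0.21. With a minimum of 1000 nt, which moved the median of all genes to -0.13, they were 2310039H08Rik (-0.87), Birc5 (-0.86), Cox7a2 (-3.03), Dut (-1.09), Mrpl24 (-0.86), Timp1 (-1.76) and the ribosomal protein median (-1.68). Over assembled bases they were Birc5 (-0.14), Pdgfra (0.007), Snap25 (0.63) and Sox10 (-0.0192), with no length minimum Snap25 (0.17), and with quantile normalization Olig1 (-0.11) and Sox10 (-0.0063). Pdgfra, at -0.01 with all libraries, was at 0.038 with median centring, 0.15 adjusted for length, 0.13 adjusted for length and GC, and between -0.41 (without WT 1) and 0.40 (without KO 1) with a library left out. Sox10, at 0.22, was between -0.15 (without WT 1) and 0.59 (without KO 1).

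With 2 libraries against 4 the design had 3 residual degrees of freedom. Fold changes of genes under about 5 FPKM rest on few fragments, and their depth in reads is unknown.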
